A study of Mus musculus with 6 samples.

Results

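Enteroendocrine cells release peptide hormones and serotonin, and 10 genes behind these products are described here: the peptide hormones *Cck*, *Gip*, *Gcg*, *Pyy*, *Sct*, *Nts*, *Ghrl* and *Sst*, the tachykinin precursor *Tac1*, and *Tph1*, the enzyme that starts serotonin synthesis. They were taken by symbol from the 32285 genes of the deposited matrices. Their unique molecular identifier (UMI) counts were read in whole libraries and in the barcodes in which the chromogranins *Chga* and *Chgb* together made up at least 0.2% of UMIs, with at least 5 UMIs. This rule held for 305 of 59457 called barcodes, which are termed chromogranin-rich below.

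The single-cell libraries came from the jejunal epithelium of overnight-fasted male Wildtype C57BL/6J mice, about 30 weeks old. Surgery followed 16 weeks on diet. The mice were then returned to the same diet, and tissue was taken 5 weeks after surgery. The low-fat diet held 10% fat and the high-fat diet 60%. There were 3 groups: low-fat diet with sham surgery (LFD sham, 3 mice pooled), high-fat diet with sham surgery (HFD sham, 3 mice pooled) and high-fat diet with vertical sleeve gastrectomy (HFD VSG, 2 mice pooled). VSG removes the greater part of the stomach and leaves the intestine in place. Each group gave 1 crypt-labelled and 1 villus-labelled library, 6 in all, so no comparison of groups could be tested against the spread between mice, and every interval below covers counting error only.

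Enteroendocrine cells are rare secretory cells scattered through the intestinal epithelium. They store hormones in dense granules, sense luminal nutrients, and release their products towards capillaries and nerve endings. They arise from crypt progenitors through *Neurog3* and *Neurod1*, and 2 broad branches are recognised: cells that make peptide hormones, and enterochromaffin cells that make serotonin, often together with tachykinins.

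The 53 chromogranin-rich barcodes of LFD sham crypts were 0.493% of called barcodes, against 32 (0.344%) in HFD sham crypts and 44 (0.437%) in HFD VSG crypts. The villus-labelled libraries held 52 (0.544%), 91 (0.758%) and 33 (0.425%), in the same order of groups. Enteroendocrine genes that the rule did not use marked the same barcodes. *Neurod1* stood at 1046 counts per 1000000 UMIs (CPM) in them against 0.858 in all other barcodes, *Cpe*, a carboxypeptidase that trims prohormones, at 1302 against 1.01, and *Scg2*, another granin, at 654 against 0.448. A UMI of at least 1 of 13 such genes was present in 277 of the 305 (90.8%), against 4.62% of the 59152 other called barcodes. The 13 genes reached 0.2% of UMIs, with at least 5 UMIs, in 35 of these others (0.0592%). In HFD sham villi 67 of the 91 barcodes had one, and 49 barcodes (53.8%) were positive for none of the 10 genes, at a median of 1251 UMIs. A choice by the 13 genes in place of the chromogranins gave 260 barcodes, of which 225 were shared (73.8% of the chromogranin-rich, 86.5% of the others). Close to the threshold, 23 barcodes lay between 0.2% and 0.3%, and 25 lay between 0.1% and 0.2%. Each of the 15 pairs of libraries shared 17 to 43 called barcode sequences. None was chromogranin-rich in both libraries of a pair, and at most 1 chromogranin-rich barcode of a library was also called in the other. Marker levels of other lineages were reached in 6 of the 305 barcodes for goblet, Paneth, tuft or immune cells and in 15 for enterocytes.

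Some features of whole libraries touch every result. Called UMIs ran from 60522766 to 155522445 per library, and median UMIs per called barcode from 3622.5 to 15202. Both VSG libraries were the deepest, at medians of 9021 and 15202 UMIs against 3622.5 to 5510 in the 4 sham libraries. In chromogranin-rich barcodes the medians were 8441 and 16661 against 2260 to 8011.5. Depth thus ran with surgery, and its part in the surgery ratios was not tested. The crypt and villus labels went against their markers: 6 stem and dividing-cell genes summed to 212 to 311 CPM in the crypt-labelled libraries and 565 to 1163 in the villus-labelled ones, Paneth genes to 8268 to 9005 against 14401 to 59471, and 3 villus-tip genes to 378 to 528 against 25.3 to 97.7. The libraries are therefore called by their labels, and nothing below is read as a position in the crypt or villus. The summed level of 4 genes of damaged droplets (*Gm42418*, *Gm26917*, *Lars2* and *AY036118*) was 71594 to 91775 CPM in the 4 sham libraries and 11465 to 19694 in the 2 VSG libraries. It moved with surgery. With these genes left out of the totals, the median surgery ratios of the 10 genes given below were 1.34 in place of 1.43 and -0.63 in place of -0.52. The 4 genes made up a median of 12.8%, 12.4% and 1.93% of UMIs in chromogranin-rich barcodes of LFD sham, HFD sham and HFD VSG crypts. For LFD sham, HFD sham and HFD VSG villi the medians were 4.84%, 15.5% and 1.39%. Within these barcodes the damage level thus also differed between LFD and HFD sham villi, a diet pair, and the cause was not tested.

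In GRCm38 with GENCODE vM21 the gene bodies are Cck at chr9:121489824-121495694, Gip at chr11:96024545-96030831, Gcg at chr2:62474530-62483650, Pyy at chr11:102106676-102107832, Sct at chr7:141278330-141279133, Nts at chr10:102481756-102490486, Ghrl at chr6:113716119-113719880, Sst at chr16:23889573-23890958, Tac1 at chr6:7554879-7565834 and Tph1 at chr7:46644641-46672537. *Gip* and *Tac1* are on the plus strand and the other 8 on the minus strand. *Ghrl* is overlapped on the opposite strand by *Gm26982* and *Gm44033*. The 250 bases before the start of 5 of them are printed from RefSeq sequence of GRCm38.p6, each 5′ to 3′ on the gene's own strand, because these genes carry the co-expression described below: Cck was often positive together with Gcg and Sct, Gip together with Sct but almost never with Gcg, and Sst was held by very few barcodes. The windows are chr9:121495695-121495944 (minus) for Cck, chr2:62483654-62483903 (minus) for Gcg, chr7:141279134-141279383 (minus) for Sct, chr11:96024295-96024544 (plus) for Gip and chr16:23890845-23891094 (minus) for Sst. The starts used are those of RefSeq, which differ from the GENCODE gene bodies above for Gcg and Sst. Part of the Sst window lies inside its GENCODE gene body. Capitals mark matches, on either strand, to CAGATG (an E-box form bound by factors such as Neurod1), AGATAA (the core bound by GATA factors), TATAAA (the TATA box) and TGACGTCA (the cAMP response element).
Cck: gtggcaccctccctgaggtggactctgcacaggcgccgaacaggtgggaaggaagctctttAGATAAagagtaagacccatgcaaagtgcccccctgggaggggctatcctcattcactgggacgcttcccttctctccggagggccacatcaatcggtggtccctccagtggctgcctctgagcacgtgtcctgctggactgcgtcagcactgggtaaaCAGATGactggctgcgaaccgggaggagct
Gcg: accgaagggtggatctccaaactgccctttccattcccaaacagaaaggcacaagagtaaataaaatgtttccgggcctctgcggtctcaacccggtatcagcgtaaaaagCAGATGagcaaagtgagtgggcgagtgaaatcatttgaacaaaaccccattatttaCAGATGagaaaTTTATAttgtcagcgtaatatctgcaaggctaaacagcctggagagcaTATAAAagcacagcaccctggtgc
Sct: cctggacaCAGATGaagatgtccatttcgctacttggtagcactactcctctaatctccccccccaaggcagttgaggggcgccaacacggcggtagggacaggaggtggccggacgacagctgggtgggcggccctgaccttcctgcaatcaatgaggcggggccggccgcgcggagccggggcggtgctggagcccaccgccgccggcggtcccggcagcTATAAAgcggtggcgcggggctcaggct
Gip: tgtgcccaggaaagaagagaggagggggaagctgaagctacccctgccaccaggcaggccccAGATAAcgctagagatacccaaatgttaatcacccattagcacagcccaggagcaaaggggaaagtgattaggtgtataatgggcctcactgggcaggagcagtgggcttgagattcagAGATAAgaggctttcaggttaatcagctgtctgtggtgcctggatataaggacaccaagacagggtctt
Sst: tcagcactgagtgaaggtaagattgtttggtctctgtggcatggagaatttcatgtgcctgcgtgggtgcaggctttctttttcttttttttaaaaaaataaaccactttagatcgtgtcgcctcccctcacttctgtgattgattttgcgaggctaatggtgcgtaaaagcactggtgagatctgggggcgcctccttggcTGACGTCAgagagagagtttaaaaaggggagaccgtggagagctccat
CAGATG was in the windows of *Cck*, *Gcg*, *Sct* and *Tac1*, 4 of the 10, and in 14.4% of all 32851 promoter windows of this length. In *Cck* it began 30 bases before the start, and in *Gcg* it was present at 139 and 83 bases. AGATAA was also in 4 of the 10 (*Cck*, *Gip*, *Nts* and *Tac1*; 9.99% of all windows), and *Gip* held it at 188 and 69 bases. TATAAA was in *Gcg* and *Sct* (12.4% of all windows). TGACGTCA was found in *Sst* alone, 48 bases before the start, against 1.55% of all windows. The members are counted as genes and the background as windows, and *Ghrl*, *Pyy* and *Tph1* have more than 1 window each. The counts and shares thus differ in unit and are not compared. No matches overlapped in the printed windows, and a match is a run of letters, not a measured site.

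The 10 genes together gave 192743 UMIs in called barcodes, of which 155601 (80.7%) were in the 305 chromogranin-rich barcodes. The share was lowest in HFD sham crypts (46.1%) and ran from 69.0% to 91.6% in the other 5 libraries. It was 92.3% for *Pyy*, 89.6% for *Gip* and *Tac1*, 89.3% for *Tph1*, 87.1% for *Cck*, 83.9% for *Nts*, 78.5% for *Gcg*, 71.8% for *Sst*, 64.0% for *Sct* and 46.4% for *Ghrl*. Levels below are CPM within the chromogranin-rich barcodes unless whole libraries, meaning all called barcodes, are named. A barcode was called positive for a gene when that gene had at least 3 UMIs and at least 0.1% of its UMIs. UMIs were counted from 3′ ends, so levels were not divided by gene length.

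**Figure D1:**
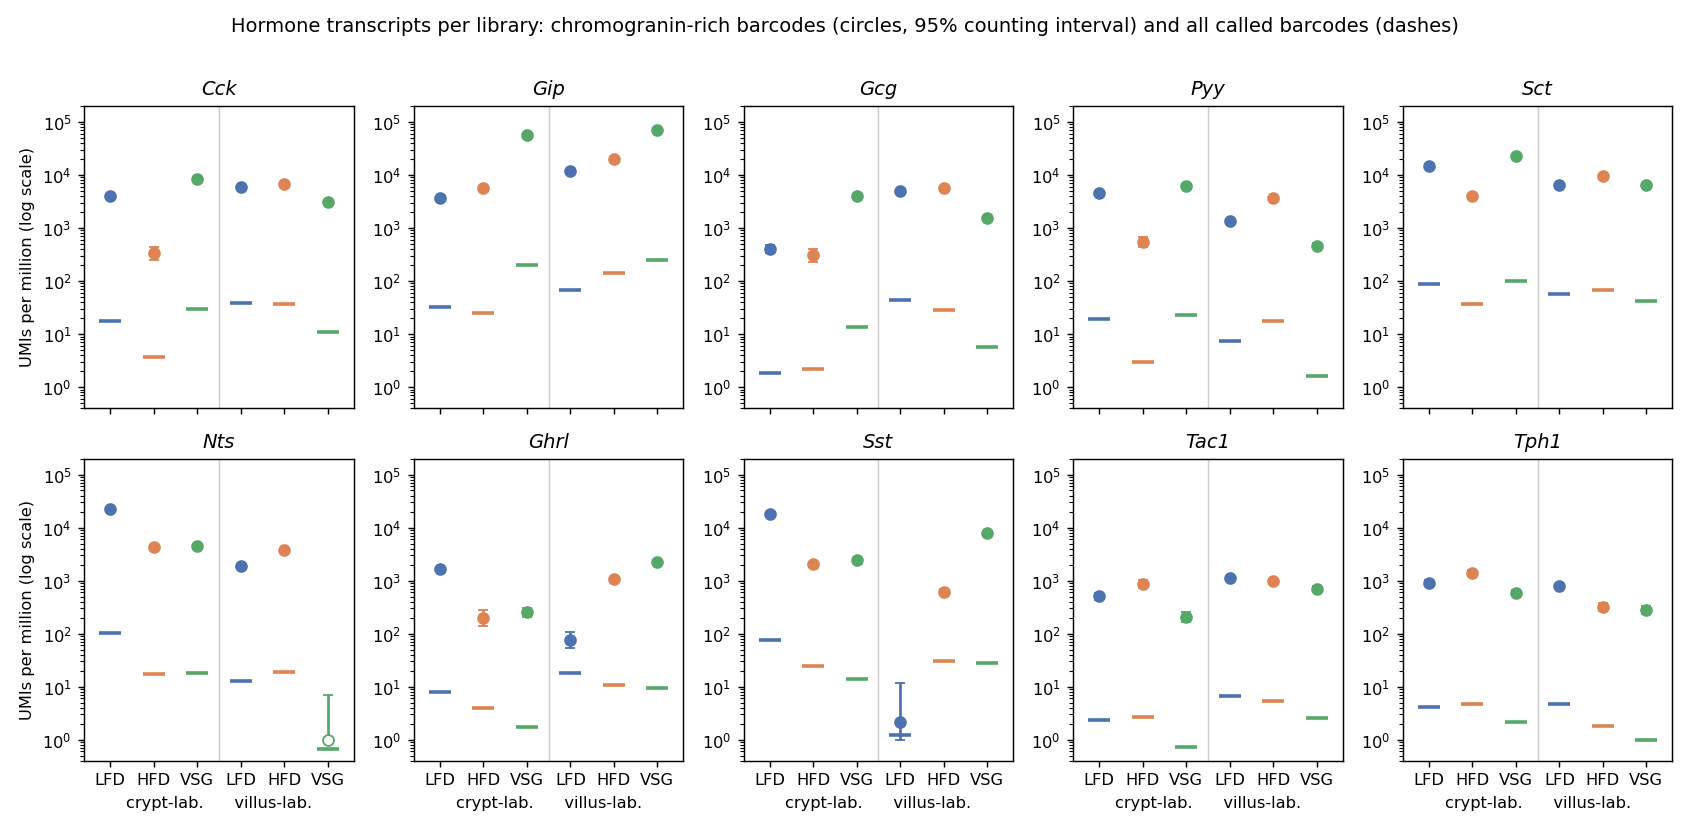
Level of each of the 10 genes in chromogranin-rich barcodes of the 6 libraries, in CPM on a log axis. Circles are chromogranin-rich barcodes with exact 95% counting intervals and dashes are all called barcodes. *Gip* is highest in both HFD VSG libraries, at 56401 and 71272 CPM, and *Nts* in LFD sham crypts, at 22523 CPM.

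*Gip*, the incretin of K cells, was the most abundant of the 10, with 84399 UMIs. It stood at 3738 CPM in LFD sham crypts, 5675 in HFD sham crypts and 56401 in HFD VSG crypts. The villus-labelled libraries gave 11787, 20352 and 71272 CPM. Both VSG libraries thus lay above all 4 sham libraries, and no neighbours in the order of the 6 overlapped in their counting intervals. Whole libraries gave 32.8, 25.3 and 203 CPM (crypt-labelled) and 67.3, 145 and 248 CPM (villus-labelled), again with both VSG libraries highest. The number of *Gip*-positive chromogranin-rich barcodes was 7 of 53, 6 of 32 and 19 of 44 in the crypt-labelled libraries and 9 of 52, 15 of 91 and 17 of 33 in the villus-labelled ones. The positive share was 18.8% (exact 95% interval 7.21 to 36.4) in HFD sham crypts and 43.2% (28.3 to 59.0) in HFD VSG crypts, and 16.5% (9.53 to 25.7) and 51.5% (33.5 to 69.2) in the villus-labelled pair. With at least 1500 UMIs, which leaves out 36 of the 91 barcodes of HFD sham villi, the villus-labelled shares were 25.5% (14 of 55) and 54.8% (17 of 31). Per positive barcode the median level was 283, 699 and 1189 UMIs per 10000 in the crypt-labelled libraries and 639, 272 and 1175 in the villus-labelled ones. Within chromogranin-rich barcodes both the positive share and the level per positive barcode were therefore highest after VSG. Of all called barcodes, 0.216% (26, interval 0.141 to 0.317) were *Gip*-positive in HFD sham villi and 0.232% (18, 0.137 to 0.366) in HFD VSG villi. Of these, 11 and 1 lay outside the rule, so the villus-labelled difference in share was seen within the rule only. For HFD sham and HFD VSG crypts the shares were 0.129% (0.0666 to 0.225) and 0.229% (0.145 to 0.343).

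*Cck*, the hormone of I cells that contracts the gallbladder, gave 4027, 333 and 8292 CPM in LFD sham, HFD sham and HFD VSG crypts and 5815, 6703 and 3039 CPM in the villus-labelled libraries. HFD sham crypts stood apart, with 59 UMIs in 32 barcodes. The positive shares there (5 of 32) and in LFD sham crypts (9 of 53) were 15.6% and 17.0%, while the median level per positive barcode was 17.9 against 66.9 UMIs per 10000.

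*Gcg*, the precursor of glucagon-like peptides in L cells, gave 406, 305 and 3964 CPM in the crypt-labelled and 4889, 5652 and 1578 CPM in the villus-labelled libraries. It was positive in only 26 of the 305 barcodes, with 1, 1 and 4 in the crypt-labelled and 9, 10 and 1 in the villus-labelled libraries. A single barcode held 831 of the 836 *Gcg* UMIs of HFD VSG villi, 128 of 139 in LFD sham crypts and 51 of 54 in HFD sham crypts. The levels of these 3 libraries are those of 1 barcode each.

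*Pyy*, which L cells release with the products of *Gcg*, gave 4547, 548 and 6172 CPM in the crypt-labelled and 1368, 3615 and 468 CPM in the villus-labelled libraries, with 9, 3, 10 and 4, 5, 3 positive barcodes. The lowest levels, in HFD VSG villi and HFD sham crypts, overlapped in their intervals. Whole libraries kept the same order, from 1.64 CPM in HFD VSG villi to 23.0 CPM in HFD VSG crypts.

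*Sct*, the hormone that drives bicarbonate secretion, was the most widespread, positive in 152 of the 305 barcodes. Levels were 14904, 3953 and 22446 CPM in the crypt-labelled and 6447, 9613 and 6537 CPM in the villus-labelled libraries. Positive shares were 52.8%, 62.5% and 81.8%, then 40.4%, 29.7% and 60.6%. These shares moved with depth, since 14 of the 53 barcodes of LFD sham crypts and 36 of the 91 of HFD sham villi had fewer than 1500 UMIs, against 0 to 5 in the other 4 libraries. At 1500 UMIs or more the shares were 69.2%, 67.9% and 81.8%, then 42.6%, 47.3% and 64.5%, so neither diet pair kept its order, while the HFD VSG libraries stayed highest. The 95% intervals of LFD and HFD sham overlapped in both pairs (52.4 to 83.0 and 47.6 to 84.1, then 28.3 to 57.8 and 33.7 to 61.2). Those of HFD VSG (67.3 to 91.8, then 45.4 to 80.8) overlapped the sham intervals too. With these barcodes thinned to 1500 UMIs, the share with any *Sct* UMI was 81.1%, 84.7% and 87.5%, then 62.5%, 61.8% and 75.6%. *Sct* also differed from the other 9 genes outside the chromogranin-rich barcodes: 17 of 1330 goblet barcodes and 6 of 327 tuft barcodes were positive, against 7 of 20784 enterocyte barcodes and 0 of 744 Paneth barcodes, and its pooled level was 172 CPM in goblet, 121 in tuft, 27.3 in Paneth and 20.9 in enterocyte barcodes.

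*Nts*, the neurotensin precursor of N cells, was highest by a wide margin in LFD sham crypts. The levels were 22523, 4241 and 4394 CPM in the crypt-labelled libraries and 1897, 3706 and 0 CPM in the villus-labelled ones. LFD sham crypts had 16 positive barcodes of 53 (30.2%), the next 4 libraries 3 to 5 each, and HFD VSG villi 0 of 33, with no *Nts* UMI in these barcodes. A count of 0 in 33 allows a positive share of up to 10.6%. The whole library of HFD VSG villi held 104 *Nts* UMIs (0.669 CPM), none of them in a chromogranin-rich barcode.

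*Ghrl*, the precursor of the appetite hormone ghrelin, gave 1687, 198 and 253 CPM in the crypt-labelled and 77.3, 1061 and 2237 CPM in the villus-labelled libraries, from 8, 2, 2 and 1, 4, 4 positive barcodes. The 36 UMIs of LFD sham villi are 2.3% of that library's 1565 *Ghrl* UMIs. Below the threshold lay 1 barcode with 1126 *Ghrl* UMIs and chromogranins at 0.197%, and 1 with 218 *Ghrl* UMIs and chromogranins at 0.18%. *Sst*, the inhibitory peptide of D cells, gave 17863, 2055 and 2422 CPM and 2.15, 618 and 8058 CPM, from 5, 1, 1 and 0, 2, 3 positive barcodes. Only 12 barcodes carried it, and single barcodes held 363 of the 364 *Sst* UMIs in HFD sham crypts, 946 of 947 in HFD VSG crypts and 2897 of 4269 in HFD VSG villi. For both genes the spread between libraries is that of a few cells.

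*Tac1*, the precursor of substance P, and *Tph1*, the enterochromaffin enzyme, spanned narrower ranges than most of the peptides. *Tac1* gave 502, 858 and 207 CPM in the crypt-labelled and 1096, 973 and 700 CPM in the villus-labelled libraries, from 40 positive barcodes. *Tph1* gave 911, 1395 and 593 CPM and 788, 315 and 279 CPM, from 52 positive barcodes. In whole libraries the highest level was 9.08 times the lowest for *Tac1* and 4.74 times for *Tph1*, against 2.77 times for *Sct*, 9.82 times for *Gip*, 24.5 times for *Gcg*, 61.8 times for *Sst* and 154 times for *Nts*. Neither gene was positive in any of the 20784 enterocyte barcodes.

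Any UMI of a hormone is a weaker sign than a positive call. Among chromogranin-rich barcodes 75.4% had a *Sct* UMI and 29.8% a *Gip* UMI. Enterocyte barcodes had a *Sct* UMI in 17.3% to 31.8% and a *Gip* UMI in 3.41% to 10.4%, at median depths of 6563 to 34050 UMIs against 2260 to 16661 UMIs in the chromogranin-rich barcodes. After thinning to 1500 UMIs, which left out 61 shallower chromogranin-rich barcodes (36 of them in HFD sham villi), the shares were 74.0% and 30.1% in chromogranin-rich barcodes, 2.38% to 4.36% and 0.590% to 1.45% in enterocyte barcodes. *Nts* was positive in 16 enterocyte barcodes, 14 of them in LFD sham crypts, where its level in all other barcodes was also highest.

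**Figure D2:**
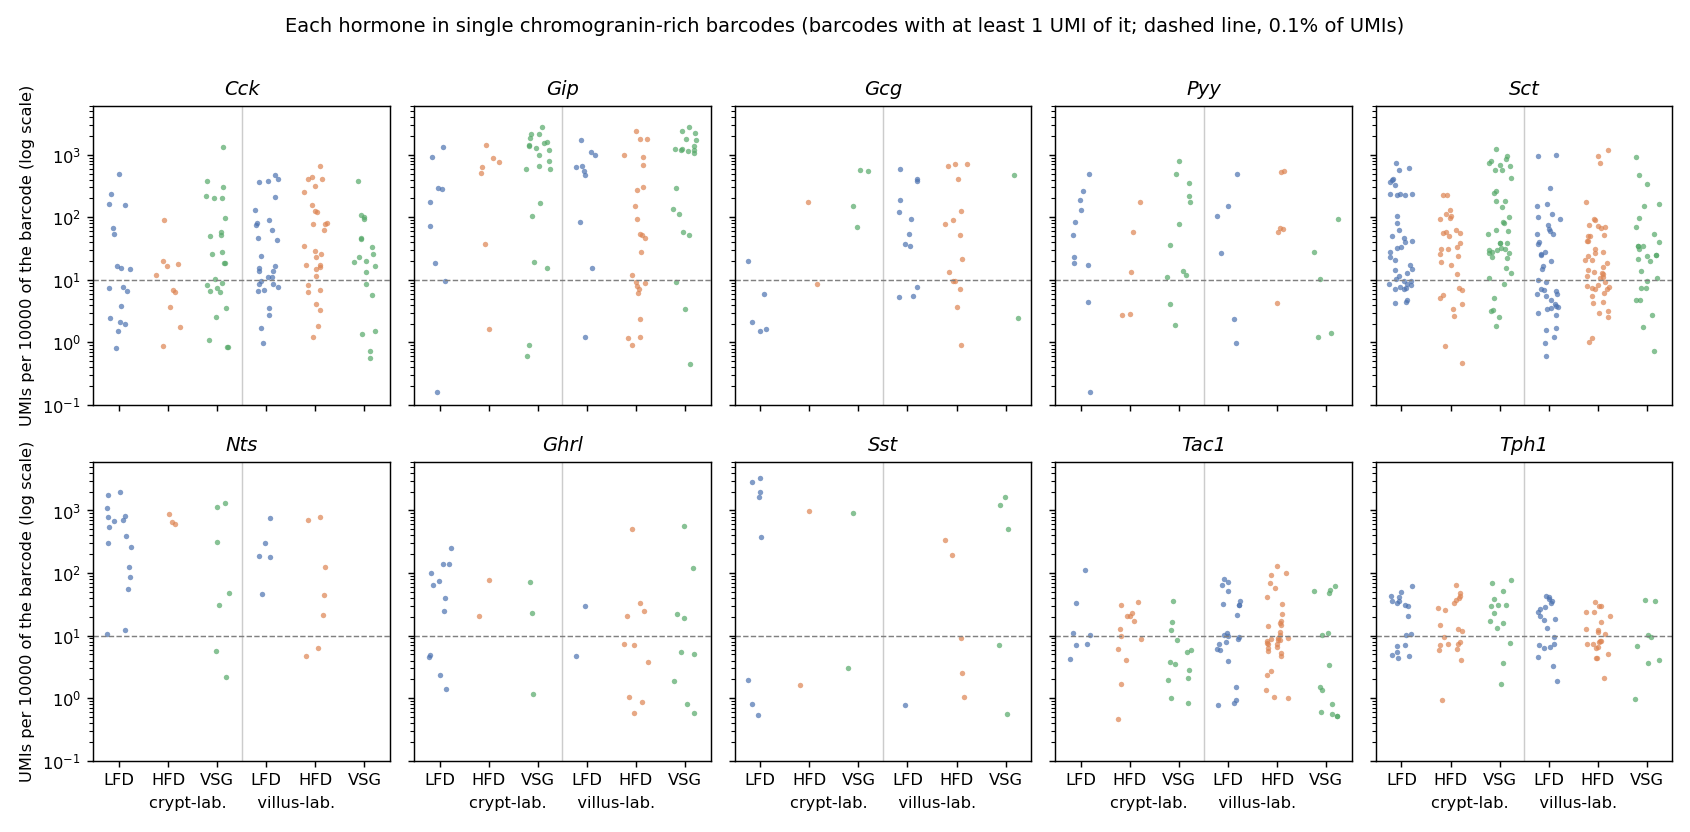
Level of each gene in single chromogranin-rich barcodes by library, in UMIs per 10000 UMIs on a log axis, 1 point per barcode with at least 1 UMI of the gene; the dashed line marks 0.1% of UMIs. *Gip*-positive barcodes reach 2749 UMIs per 10000 in HFD VSG villi, whereas *Tph1* reaches at most 78.4.

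The diet comparison sets HFD sham against LFD sham, as log2 ratios of CPM in chromogranin-rich barcodes, with sums under 3 UMIs set to 3. A gene counted as higher or lower when the ratio was at least 1 or at most -1. In the crypt-labelled libraries 6 of the 10 genes were lower and 0 were higher, with a median of -2.16. Among all 2309 genes that averaged 20 or more UMIs over the pair, 4.42% were lower, 3.81% were higher, and the median was 0.00. The 6 were *Cck* (-3.60, 95% interval -4.00 to -3.22), *Sst* (-3.12, -3.28 to -2.97), *Ghrl* (-3.09, -3.63 to -2.60), *Pyy* (-3.05, -3.36 to -2.76), *Nts* (-2.41, -2.52 to -2.30) and *Sct* (-1.91, -2.03 to -1.80). Over 14 other settings these 6 kept their sign but moved far outside the counting intervals. *Pyy* ran from -7.75 to -1.59, *Nts* from -8.62 to -1.45 and *Sst* from -9.97 to -1.48. *Ghrl* ran from -5.56 to -0.28, *Cck* from -4.28 to -0.89 and *Sct* from -2.50 to -0.86. The other 4 of the 10 genes were *Gip* (0.60), *Gcg* (-0.41), *Tac1* (0.77) and *Tph1* (0.62). *Tac1* passed 1 without the top barcode (1.98) and *Gip* with equal barcode weights (1.20). *Gcg* had no stable direction, at -1.19 without the top barcode, 2.95 with chromogranins at 0.5% or more and 3.25 when each barcode had the same weight. In whole libraries the same 6 were lower (median -1.12), where 2.84% of 13044 genes were lower and 0.951% higher. *Cck* stood at -2.25 there, *Pyy* at -2.69, *Nts* at -2.55, *Sst* at -1.66, *Sct* at -1.23 and *Ghrl* at -1.01. A whole-library level cannot tell fewer hormone cells from less RNA per cell. It also leaves out barcodes not called as cells, which held 75.1% of the *Cck* UMIs of HFD sham crypts, 26.0% in LFD sham crypts and 14.9% in HFD VSG crypts. Over all barcodes *Cck* was at 15.1 CPM in LFD sham crypts, 8.17 in HFD sham crypts and 25.9 in HFD VSG crypts. The diet ratios were then -0.89 for *Cck*, -0.86 for *Sct* and -0.28 for *Ghrl*, all inside the size used, -1.64 for *Pyy*, -2.23 for *Nts* and -1.48 for *Sst*, and *Gcg* was higher at 1.37.

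In the villus-labelled libraries the same diet comparison gave a different set. *Sst*, *Ghrl* (3.78, 3.29 to 4.31) and *Pyy* (1.40, 1.27 to 1.54) were higher and *Tph1* (-1.32, -1.63 to -1.03) was lower, so 3 of 10 were higher and 1 lower at a median of 0.68. The background was 2.32% higher and 2.37% lower of 3874 genes, with a median of -0.08. *Sst* had 1 UMI in LFD sham villi and 245 in HFD sham villi, a ratio of 8.17 (5.68 to 13.48) from the counts as they stand and 6.58 with the 1 UMI set to 3. *Gip* was at 0.79 and *Nts* at 0.97, both inside the size used, but both calls depended on the setting: *Nts* was at 2.66 with chromogranins at 0.5% or more, 1.51 with at least 750 genes and at most 20% mitochondrial UMIs and -0.61 when each barcode had the same weight, and *Gip* was at 1.32, 1.14 and -0.18 with barcodes chosen by the other genes, with chromogranins at 0.1% or more and with equal weights. Whole libraries also gave 3 higher and 1 lower, against 1.38% and 8.71% of 14050 genes, but not with the same members: *Sst* (4.62), *Pyy* (1.25) and *Gip* (1.10) were higher, *Tph1* (-1.38) was lower, and *Ghrl* was at -0.75. With chromogranins at 0.1% or more, which takes in both barcodes just below the threshold, *Ghrl* was at -1.29. *Pyy* was at -0.10 when each barcode had the same weight. Each of *Pyy*, *Ghrl* and *Sst* lay on opposite sides of 0 in the crypt- and villus-labelled pairs.

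The surgery comparison sets HFD VSG against HFD sham and shares the HFD sham libraries with the diet comparison, so a low HFD sham value enters both. In the crypt-labelled libraries 5 genes were higher, *Cck* (4.64, 4.27 to 5.03), *Gcg* (3.70, 3.31 to 4.12), *Pyy* (3.49, 3.20 to 3.80), *Gip* (3.31, 3.22 to 3.41) and *Sct* (2.51, 2.39 to 2.62). Both enterochromaffin genes were lower, *Tac1* at -2.05 (-2.46 to -1.65) and *Tph1* at -1.23 (-1.50 to -0.97), the latter at -0.47 when each barcode had the same weight. *Nts* (0.05), *Ghrl* (0.36) and *Sst* (0.24) were inside the size used, but not under every setting. With at least 750 genes and at most 20% mitochondrial UMIs *Ghrl* was at 2.86 and *Sst* at 7.12, and *Nts* was at 7.73 with chromogranins at 0.5% or more. Without the top barcode both libraries had 1 *Sst* UMI, set to 3, so the -1.13 of that setting comes from the totals alone. The median was 1.43, and of 2536 genes 5.84% were higher and 3.9% lower, with a median of 0.03. Whole libraries gave the same 5 higher, at 3.04 for *Cck*, 3.01 for *Gip*, 2.96 for *Pyy*, 2.65 for *Gcg* and 1.47 for *Sct*, and 3 lower (*Tac1*, *Tph1* and *Ghrl* at -1.17), where 3.08% and 0.894% of 13315 genes were higher and lower. With uncalled barcodes included, the ratios of the 5 were 1.66 for *Cck*, 2.51 for *Gip*, 1.94 for *Pyy*, 1.19 for *Gcg* and 1.10 for *Sct*.

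In the villus-labelled libraries *Gip* was higher by 1.81 (1.77 to 1.84), *Sst* by 3.71 (3.52 to 3.90) and *Ghrl* by 1.08 (0.91 to 1.24). *Cck* (-1.14, -1.23 to -1.05), *Gcg* (-1.84, -1.96 to -1.73) and *Pyy* (-2.95, -3.15 to -2.75) were lower. *Nts* was also lower, with 0 UMIs against 1470, a ratio of -9.35 (-11.63 to -7.80) with the 0 set to 3. It was positive in 5 of 91 barcodes of HFD sham villi and 0 of 33 of HFD VSG villi. *Cck* was at -0.39 when each barcode had the same weight. That is 3 higher and 4 lower of 10 at a median of -0.52, with 8.11% and 6.7% of 4059 genes and a median of 0.09. Whole libraries gave 0 higher and 5 lower, against 16.2% higher and 7.03% lower of 14382 genes. *Gip* was at 0.78 there, *Sst* at -0.09 and *Ghrl* at -0.16, whereas *Nts* (-4.81), *Pyy* (-3.45), *Gcg* (-2.27), *Cck* (-1.74) and *Tac1* (-1.05) were lower. Only *Gip* was beyond 1 in the same direction in both VSG comparisons within chromogranin-rich barcodes. *Cck*, *Gcg* and *Pyy* were higher after VSG in the crypt-labelled pair and lower in the villus-labelled pair, and this difference was not tested.

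**Figure D3:**
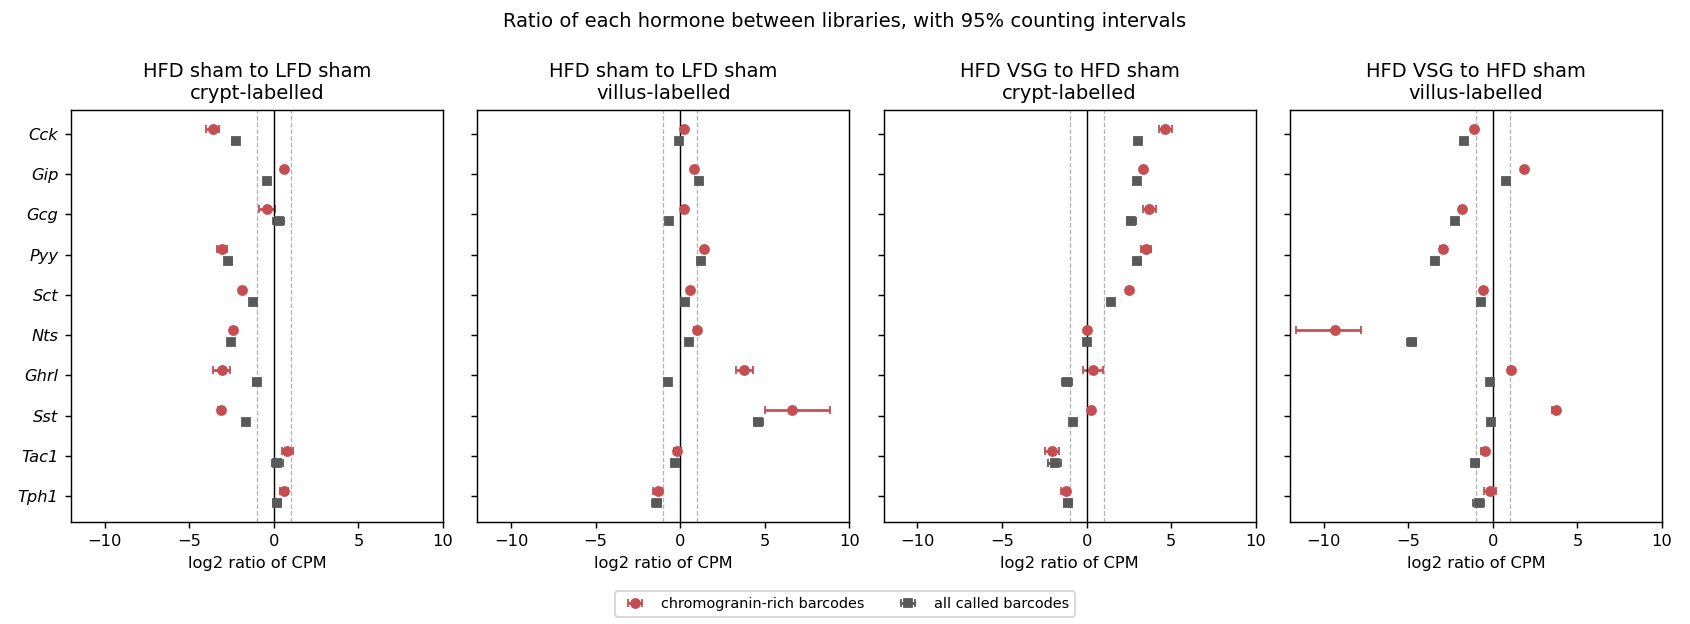
Log2 ratio of each gene in chromogranin-rich barcodes for diet (HFD sham to LFD sham) and surgery (HFD VSG to HFD sham), crypt- and villus-labelled libraries apart, with 95% counting intervals; squares are all called barcodes. Surgery ratios of *Gip* are 3.31 and 1.81, whereas those of *Cck*, *Gcg* and *Pyy* change sign between the labels.

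Leaving out the barcode with the most UMIs of a gene in each library shows how far a ratio rests on 1 cell. The surgery ratios of *Gip* were then 3.63 (crypt-labelled) and 2.06 (villus-labelled), and those of *Cck* 4.73 and -1.62. *Gcg* moved from -1.84 to -8.76 in the villus-labelled pair and from 3.70 to 7.08 in the crypt-labelled pair, and *Sst* from -3.12 to -9.02 in the crypt-labelled diet pair. For *Sst* HFD sham crypts then had 1 UMI, set to the floor of 3, which fixes the size of the -9.02. *Ghrl* in the villus-labelled surgery pair went from 1.08 to 0.55. Of 24 ratios beyond 1, 20 kept their sign under all 14 other settings and 14 also stayed beyond 1.

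The 10 genes were not spread evenly over the chromogranin-rich barcodes. Of the 305, 215 were positive for at least 1 and 173 for at least 2. By the gene with the most UMIs among the 10, *Gip* led 55 of the 215, *Sct* 41, *Tac1* 28, *Nts* 23, *Tph1* 23, *Cck* 15, *Gcg* 14, *Sst* 11, *Ghrl* 4 and *Pyy* 1. *Gip* led 4, 5 and 14 barcodes in LFD sham, HFD sham and HFD VSG crypts and 8, 10 and 14 in the villus-labelled libraries. *Nts* led 11, 3 and 2, then 4, 3 and 0. *Tph1* led 7, 4 and 6, then 6, 0 and 0, and *Tac1* led 2, 3 and 0, then 8, 9 and 6.

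**Figure D4:**
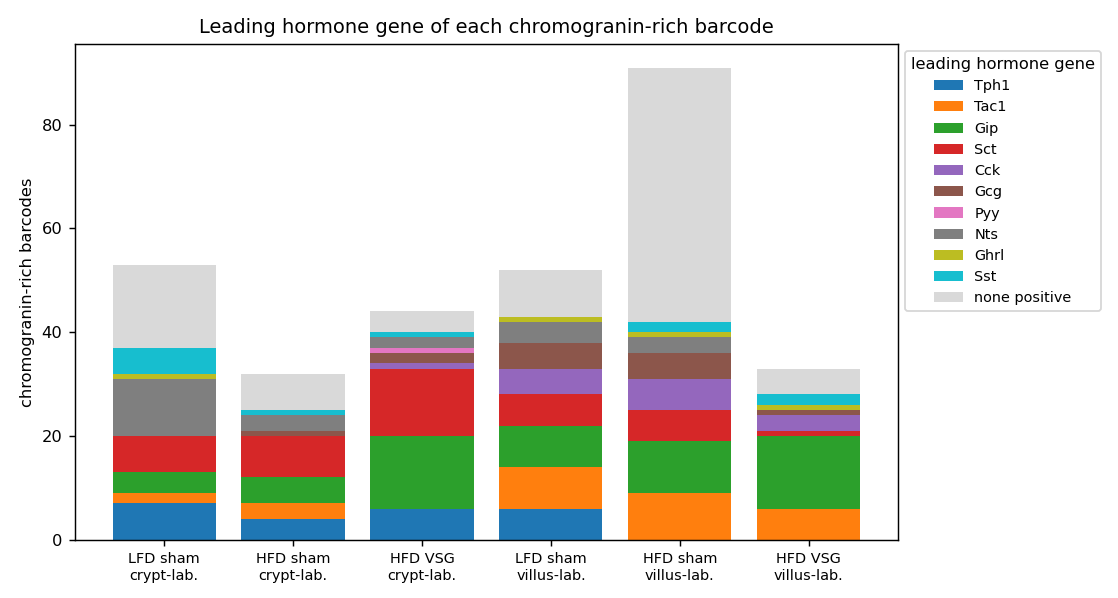
Number of chromogranin-rich barcodes in each library whose leading gene, the one with the most UMIs among the 10, is shown by colour, with barcodes positive for none set apart. *Gip* leads 14 barcodes in each HFD VSG library, and 49 of the 91 barcodes of HFD sham villi are positive for none.

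The serotonin and peptide branches were nearly separate. Barcodes positive for *Tac1* or *Tph1* numbered 67, those positive for a peptide hormone other than *Sct* numbered 146, and 3 were both. *Tac1* alone was positive in 15, *Tph1* alone in 27 and both in 25. The serotonin branch was 10, 14 and 11 barcodes in the crypt-labelled libraries (18.9%, 43.8% and 25%) and 16, 10 and 6 in the villus-labelled ones (30.8%, 11.0% and 18.2%). The peptide branch was 27, 11 and 26 barcodes (50.9%, 34.4% and 59.1%), then 29, 31 and 22 (55.8%, 34.1% and 66.7%). The low shares of HFD sham villi moved with its shallow barcodes. At 1500 UMIs or more the villus-labelled libraries gave 57.4%, 54.5% and 71.0% for the peptide branch and 34.0%, 18.2% and 19.4% for the serotonin branch, and barcodes positive for none were 14 of 55 (25.5%) in HFD sham villi. In the crypt-labelled libraries the peptide branch was then 66.7%, 35.7% and 59.1%, with LFD sham in place of HFD VSG highest, and the serotonin branch 7 of 39, 14 of 28 and 11 of 44. Within the rule, HFD sham crypts were the only library of the 6 in which the serotonin branch outnumbered the peptide branch. Outside the rule this library had hormone-positive barcodes led by *Gip* (5), *Sst* (6), *Gcg* (1), *Ghrl* (1), *Nts* (1) and *Sct* (6), against 1 led by *Tph1*. The order of the branches there thus holds for chromogranin-rich barcodes only. The median chromogranin share of UMIs was 4.96% to 7.70% in the serotonin branch and 0.392% to 1.16% in the peptide branch, the second closer to the 0.2% threshold.

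Among the 244 chromogranin-rich barcodes with at least 1500 UMIs, 14 of the 45 pairs of genes were never positive together and 9 had a Pearson r, centred within library, of at least 0.3. These correlations describe barcodes that share libraries and depth. *Tac1* and *Tph1* had the highest r, 0.71, and were positive together in 25 barcodes. *Cck* went with *Gcg* (r = 0.61, 22 of the 24 *Gcg*-positive barcodes), *Pyy* (0.56, 27 of 34) and *Sct* (0.56, 67 of the 80 *Cck*-positive barcodes). *Ghrl* and *Sst* gave 0.60, with 9 of 12 *Sst*-positive barcodes also positive for *Ghrl*. *Sct* was positive in 31 of the 34 *Nts*-positive and 60 of the 70 *Gip*-positive barcodes (r = 0.36 and 0.32), and *Gcg* and *Pyy* were together in 12 (0.42). *Cck* and *Gip* were positive together in 34 barcodes, 42.5% of the *Cck*-positive and 48.6% of the *Gip*-positive, at an r of 0.14. In contrast, *Gip* and *Gcg*, the 2 incretin precursors, were positive together in 1 barcode (r = -0.21), and *Gip* was never positive with *Tac1* or *Tph1*. *Sct* crossed the branches: 32 of the 49 *Tph1*-positive barcodes were positive for it (65.3%), although its r with *Tph1* was -0.23.

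**Figure D5:**
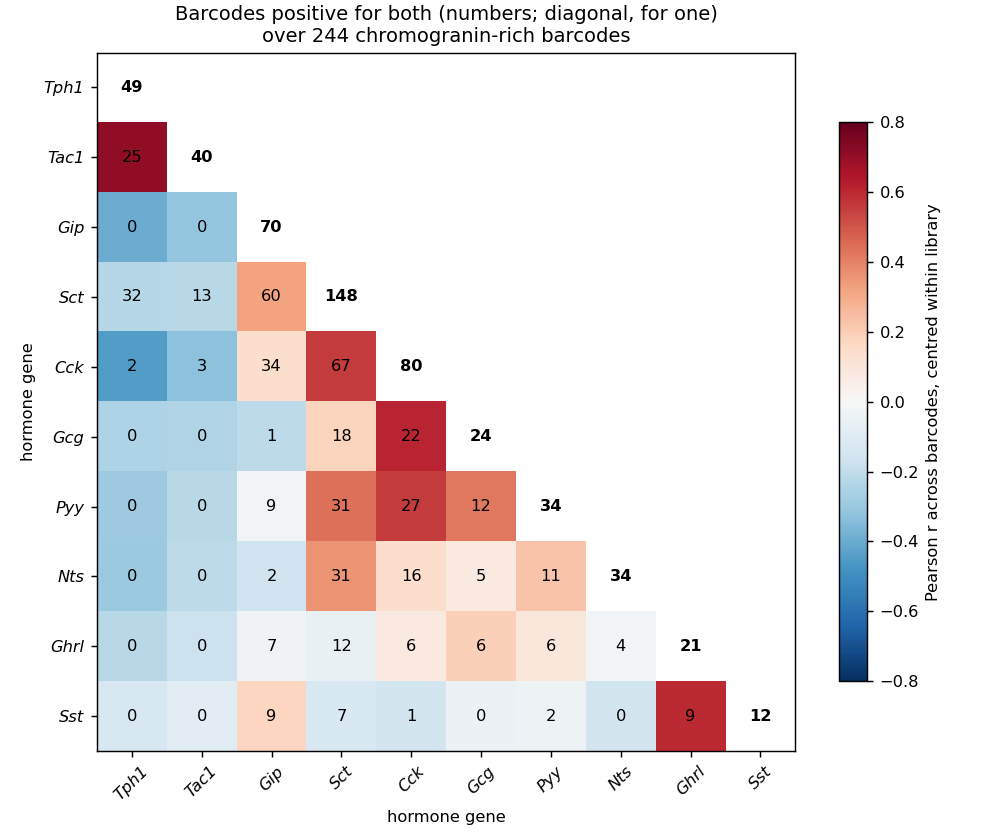
Library-centred Pearson r for the 45 pairs of genes over 244 chromogranin-rich barcodes with at least 1500 UMIs, as colour, with the number of barcodes positive for both printed in each cell. *Tac1* with *Tph1* (0.71), *Cck* with *Gcg* (0.61) and *Ghrl* with *Sst* (0.60) are the highest, and *Cck* with *Tph1* (-0.45) is the lowest.

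The genes most like each hormone were taken from 8968 genes by the same r. *Gip* was most like *Fabp5*, a fatty acid binding protein (0.79), *Pkib* (0.70) and *Cnr1*, a cannabinoid receptor (0.69). For *Cck* these were *Scg2* (0.66), the transcription factor *Etv1* (0.65) and the long-chain fatty acid receptor *Ffar1* (0.61), and for *Gcg* they were *Fars2* and *Etv1* (both 0.66) and *Cck* (0.61). *Pyy* was most like *Cck* (0.56), *Etv1* (0.51) and *Scg2* (0.50), and *Sct* like *Scg2* (0.64), *Myl7* (0.63) and *Cpe* (0.59). *Nts* gave *Adgrd1* (0.71), *Pde3a* (0.47) and *Ffar1* (0.46) over 5 libraries. *Ghrl* gave *Sst* (0.60), *Cd177* (0.44) and *Kcnk16* (0.41), and *Sst* gave *Asic5* (0.64), *Ghrl* (0.60) and *A2ml1* (0.50). *Tac1* was most like *Tph1* (0.71), *Rab3c* (0.68) and *Tpbg* (0.67), and *Tph1* like *Chga* (0.77, a gene of the rule), *Tac1* (0.71) and *Lmx1a* (0.69), a transcription factor of enterochromaffin cells.

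Hormone-rich barcodes outside the rule differed by gene. In all, 126 other called barcodes were positive for at least 1 of the 10, and 43 of them gave at least 1% of their UMIs to their leading gene. For *Tac1* no positive barcode lay outside and for *Tph1* 1 did, whereas *Ghrl* had 21 outside and 21 inside and *Sst* 22 outside and 12 inside. The largest were 1 barcode of HFD sham villi with 3243 *Gip* UMIs of 30208 and 40 chromogranin UMIs, and 1 with 1995 *Sst* UMIs of 26698 and 19 chromogranin UMIs. By leading gene at 1% or more of UMIs, the median chromogranin share was 0.242% for *Sst*, 0.197% for *Ghrl* and 0.392% for *Nts*, against 0.748% for *Gip* and 1.29% for *Sct*. Values of *Ghrl*, *Sst* and *Nts* within the rule therefore leave out many of their positive barcodes. *Sct* had 50 outside and 152 inside, and *Gip* 28 outside and 73 inside. For *Gip* the loss was uneven. In LFD sham, HFD sham and HFD VSG crypts 6 of 13, 6 of 12 and 4 of 23 positive barcodes lay outside. The villus-labelled libraries gave 0 of 9, 11 of 26 and 1 of 18, so this limit also holds for the *Gip* comparisons.

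Genes that process and release hormones had medians nearer 0 than the 10 genes in all 4 comparisons. *Chga* and *Chgb*, which chose the barcodes, were left out of this list, which leaves 15 genes. In the crypt-labelled diet pair 13 averaged 20 or more UMIs, of which 1 was higher and 2 lower, at a median of -0.24, where 3.81% of all genes were higher and 4.42% lower. *Scg2* stood at -2.21 and *Scg3* at -1.08, and *Rab3c*, a granule-associated small GTPase, at 2.68. *Rab3c* had 43 UMIs against 13, so it averaged 20 UMIs through HFD sham crypts. The same held through 1 library for 1 of the 5 called after VSG in the crypt-labelled pair, so these counts are a description only. In the villus-labelled diet pair 0 of 13 were beyond 1 (median -0.17, with 2.32% and 2.37% of all genes). After VSG 4 of 13 were higher and 1 lower in the crypt-labelled pair, at a median of 0.36, where 5.84% and 3.9% of all genes were, with *Scg2* at 2.82, *Cpe* at 2.02 and *Rab3c* at -1.66. In the villus-labelled pair 0 of 12 were higher and 2 lower (8.11% and 6.7% of all genes), *Scg2* at -1.89 and *Rab3c* at -1.79. *Pcsk1*, the convertase that cuts most gut prohormones, ran only from 402 to 857 CPM over the 6 libraries.

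Of 21 enteroendocrine transcription factors, 7 of the 11 measured were lower and 1 was higher in the crypt-labelled diet pair, at a median of -1.18 beside 0.00 for all genes, of which 4.42% were lower and 3.81% higher. In 7 of these 8 the other library was under 20 UMIs, so that they were measured through the library where they were high, and the count is a description only. The same held for 5 of the 7 after VSG and, in the villus-labelled pairs, for 2 of 3 (diet) and 3 of 4 (surgery). *Neurog3*, the progenitor factor, stood at -2.05, *Isl1* at -1.48, *Etv1* at -1.41 and *Pax6* at -1.02, and *Lmx1a* was at 1.66. After VSG 6 of 14 were higher and 1 lower in the crypt-labelled pair (median 0.54, with 5.84% and 3.9% of all genes), with *Isl1* at 2.56 and *Lmx1a* at -1.34. The villus-labelled pairs gave 1 higher and 2 lower of 17 for diet (2.32% and 2.37% of all genes) and 1 higher and 3 lower of 18 for surgery (8.11% and 6.7%). *Onecut3* was at 1.87 for diet there and had 1 UMI against 56 for surgery, a ratio of -6.22 with an interval of -11.55 to -3.69.

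Among 9 serotonin genes 0 of 5 were beyond 1 in the crypt-labelled diet pair and 2 of 6 were lower after VSG, *Tph1* and the monoamine oxidase *Maob* (-1.75), where 3.9% of all genes were lower. *Maob* had 19 UMIs against 29 there, so it averaged 20 UMIs through HFD sham crypts, and this count is a description only. In the villus-labelled pairs 1 of 8 was higher and 1 lower for diet (*Maob* at 1.06, and *Tph1*), where 2.32% and 2.37% of all genes were. *Maob* had 32 UMIs against 18 for diet, so it averaged 20 UMIs through HFD sham villi, and this count too is a description only. After VSG 2 of 8 were lower. Both of the latter averaged 20 UMIs through HFD sham villi alone: *Slc18a2*, a vesicular monoamine transporter, had 1 UMI against 50 (-6.06, interval -11.39 to -3.52), and *Maob* had 9 against 32 (-2.25), so their count is not read against other genes. *Maob* was lower in chromogranin-rich barcodes (50.4 CPM pooled) than in all other barcodes (155 CPM), so its ratios may not be read as those of enteroendocrine cells. Few of the 24 nutrient and other sensors had enough UMIs, 5 or 6 in each comparison. *Ffar1* was at -2.41 (-3.66 to -1.36) for diet and 1.99 (0.93 to 3.25) for surgery in the crypt-labelled pairs. Its UMIs were 82, 8 and 70 in LFD sham, HFD sham and HFD VSG crypts, so both ratios rest on the same 8. In each pair it averaged 20 UMIs through the other library, and its ratios are a description only. *Cnr1* was at 3.59 for surgery in the crypt-labelled pair (80 UMIs against 3, interval 2.00 to 5.90). It averaged 20 UMIs through HFD VSG crypts, so this ratio too is a description only. *Slc5a1*, the sodium-glucose cotransporter, was at -1.27 for surgery in the villus-labelled pair, with 475 CPM in chromogranin-rich and 1603 CPM in all other barcodes. Of 20 receptor genes for these hormones only *Glp1r* reached the mean of 20 UMIs, in 1 comparison (-0.48). Of 19 other peptide genes 2 to 5 did so. *Iapp*, the amylin precursor, was at 2.64 for surgery in the villus-labelled pair (75 UMIs against 9). *Guca2a* and *Guca2b*, which are also made by goblet cells and enterocytes, were at -2.99 (15 UMIs against 89) and -3.32 there. *Iapp* and *Guca2a* each averaged 20 UMIs through 1 library, so their ratios are a description only. *Guca2a* and *Guca2b* too were higher in the other barcodes, at 679 against 173 CPM and 2269 against 489 CPM.

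Set among all genes that averaged 50 or more UMIs, several hormones ranked near the ends, as a description only: in the villus-labelled pairs *Sst* for diet and *Nts* for surgery each passed this minimum through 1 library, with the other set to the floor of 3 UMIs. *Cck* had the second lowest diet ratio of 715 genes in the crypt-labelled pair, after *Iapp* (1 UMI against 147, a ratio of -6.25 with interval -11.56 to -3.75) and before the retinol carrier *Rbp4* (-3.34). *Sst* and *Ghrl* had the highest diet ratios of 1473 genes in the villus-labelled pair. *Cck* had the highest and *Gcg* the third highest surgery ratio of 822 genes in the crypt-labelled pair, with *Fabp5* (3.71) between them. *Nts* had the lowest and *Sst* the highest surgery ratio of 1589 genes in the villus-labelled pair. Single barcodes held much of the higher library's UMIs for these hormones, 82.7% for *Ghrl*, 59.6% and 67.9% for *Sst* (diet and surgery), 50.4% for *Nts*, 48.5% and 42.8% for *Cck* and 43.0% for *Gcg*. This was also so of other genes at the ends. The goblet gene *Spink4* (2.83 for diet and -4.30 for surgery in the crypt-labelled pairs) had 98.1% of its UMIs in HFD sham crypts in 1 barcode, *Muc2* (-3.71 for surgery) 79.8%, and *Agr2* (-3.04) 78.1%. *Afp* (2 UMIs against 415 for surgery in the villus-labelled pair) had 95.2% in 1 barcode of HFD sham villi. *Dmbt1* (-3.17 for diet in the villus-labelled pair) had 81.1% in 1 barcode of LFD sham villi, *Guca2a* (2.55 for diet in the crypt-labelled pair) 78.9% in HFD sham crypts, and *Iapp* 68.7% in LFD sham crypts. The share was 15.6% to 39.1% for the others, which were *Rbp4*, *Fabp5*, *Ccnd2* (1.69 for diet in the crypt-labelled and -1.90 in the villus-labelled pair), *Reg3g* (-2.73) and *Mme* (3.05) for diet in the villus-labelled pair, and *Mme* (3 UMIs against 134, -5.90, interval -8.19 to -4.32), *Dmbt1* (2.11) and *Mrpl52* (2.05) for surgery in the villus-labelled pair.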

How the data were processed

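The 10x Genomics 3′ v3.1 libraries, 6 in all, were analysed as the deposited UMI count matrices, which the authors made with Cell Ranger 6.0.0 on mm10. The deposited counts were not normalized, filtered or corrected for free RNA here. The study's own estimates of free RNA were by far the highest in HFD sham crypts, followed by HFD sham villi. The HFD sham libraries enter every comparison, and the part of free RNA in the ratios was not tested. Called barcodes were those of the filtered matrices, and doublets were not removed, but alternatives left out barcodes at the marker level of another lineage. Raw matrices served only for barcodes that were not called and for totals that include them.

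UMIs were summed over chromogranin-rich barcodes or over whole libraries, divided by the total of the same barcodes and given as CPM (counts per 1000000 UMIs). Log2 ratios used sums under 3 set to 3, with conditional exact 95% intervals, and shares used exact binomial (Clopper-Pearson) intervals, all of which cover counting error only. Barcodes of other lineages were those with at least 5% of UMIs from goblet, 20% from Paneth, 0.15% from tuft, 1% from immune or 5% from enterocyte markers. Where counted as a lineage, they also had at least 1500 UMIs and were not chromogranin-rich. Goblet, Paneth, tuft and immune barcodes reached the level of no other of these lineages, and enterocyte barcodes reached none of their levels. The chromogranin-rich barcodes had no such minimum of UMIs. With 1 library per group no test was made, where the study compared cells. The study's own cell filter (750 genes, 20% mitochondrial UMIs) was an alternative. The scripts used Python 3.11.15, numpy 2.4.6, scipy 1.17.1 and pandas 2.3.3, and the interval code was checked on simulated data.

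The genes named were the 10 members, up to 4 genes from each list (highest and lowest ratio and most abundant, with a few more for counts of 5 or fewer and for the genes past the size used, chosen after their values were seen), the 3 highest and 3 lowest genes of each comparison that averaged 50 or more UMIs, and the 3 genes most like each member among those with a UMI in at least 20 barcodes. The members and lists were chosen with earlier results of these data known. Promoter windows came from RefSeq on GRCm38.p6, found for all 10 genes. Protein sequences were not used here.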

Additional observations from a re-analysis of the deposited data

Results flagged for a closer look

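In the diet comparison *Pyy*, *Ghrl* and *Sst* went in opposite directions in the 2 pairs of libraries. The log2 ratio of HFD sham to LFD sham in chromogranin-rich barcodes was -3.05 for *Pyy* in the crypt-labelled and 1.40 in the villus-labelled pair. For *Ghrl* it was -3.09 and 3.78, and for *Sst* -3.12 and 6.58. In the villus-labelled pair *Ghrl* was at -1.29 with chromogranins at 0.1% or more, -1.12 with barcodes chosen by the other genes and -0.75 in all called barcodes, and *Pyy* at -0.10 when each barcode had the same weight, so these 2 then went the same way in both pairs. In the surgery comparison of HFD VSG with HFD sham, *Cck* was at 4.64 in the crypt-labelled and -1.14 in the villus-labelled pair, *Gcg* at 3.70 and -1.84, and *Pyy* at 3.49 and -2.95. With 1 library per group these differences were not tested.

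Barcodes that were not called as cells met the chromogranin rule in 4 libraries: 4 in LFD sham crypts, 6 in HFD sham crypts, 8 in HFD sham villi and 1 in HFD VSG crypts. Their median was 934, 896.5 and 583 UMIs in the first 3.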

How the results depend on the processing

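With 1 library per group no replicate could be left out, and barcodes cannot be assigned to mice. No paired analysis was possible because each group had 1 pooled library per label and no replicate numbers. The alternatives for all called barcodes, all barcodes with uncalled ones included, enterocyte-level barcodes, 1500 UMIs (positive shares included) and a total without damaged-droplet genes were chosen after seeing the data. The causes of the shifts were not tested. The share of hormone UMIs in chromogranin-rich barcodes (80.7%) was 85.0% with the 750-gene and 20% mitochondrial filter, 84.9% and 52.9% with chromogranins at 0.1% and 0.5%, 84.2% when other enteroendocrine genes chose the barcodes, 80.5% without other lineages, 77.8% also without enterocyte-level barcodes and 81.9% with at least 1500 UMIs. The median diet ratio in the crypt-labelled pair (-2.16) was -3.11 at 0.5%, -1.79 by the other genes, -1.25 with each barcode weighted the same, -2.31 without the top barcode, -1.12 in all called barcodes and -0.62 with uncalled ones included. The villus-labelled diet median (0.68) was 0.87 with the cell filter, 0.27 at 0.1%, 0.38 at 0.5%, 0.47 by the other genes, 0.82 with 1500 UMIs, 0.76 with median-of-ratios scaling, -0.23 with equal weights, 0.81 without the top barcode, 0.08 in all called barcodes and -0.25 with uncalled ones. The crypt-labelled surgery median (1.43) was 3.14 with the filter, 3.67 at 0.5%, 1.01 by the other genes, 0.91 with equal weights, 0.75 in all called barcodes and 0.48 with uncalled ones. The villus-labelled surgery median (-0.52) was -0.71 with the filter, -0.19 at 0.1%, -0.77 at 0.5%, -0.06 with equal weights, -0.94 in all called barcodes and -0.91 with uncalled ones. Of single genes, *Ghrl* turned for diet in the villus-labelled pair to -1.29 at 0.1%, -1.12 by the other genes, -0.75 in all called barcodes and -0.82 with uncalled ones, and for surgery to -1.19 at 0.5% and -0.16 in all called barcodes. *Pyy* turned to -0.10 for diet in the villus-labelled pair with equal weights, and *Sst* to -0.09 for surgery in all called barcodes and -0.08 with uncalled ones. The total of 305 barcodes, the share with any UMI and the 9 hormone pairs moved by less than 1.5 times under the alternatives run. Single libraries moved more: the 91 barcodes of HFD sham villi were 48 with the filter, 58 by the other genes and 55 with 1500 UMIs, and the 53 of LFD sham crypts were 34 at 0.5%. The share of all genes beyond the size used (2.32% to 8.11% over both directions of the 4 comparisons) was 9.45% to 26.1% with a size of 0.5 and 1.07% to 13.1% with an average of 100 UMIs or more. Depth limits the calls in HFD sham villi most, where 36 of 91 barcodes had fewer than 1500 UMIs.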
